A study of Mus musculus with 34 samples.

Results

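Kinesins are motor proteins that walk along microtubules, the hollow filaments of the cell skeleton, or take them apart at their ends. The genes described here are those whose symbol is Kif or Kifc followed by a number, where Kif may end in a letter from a to c. Of 58071 gene symbols over all tables, 41 met that rule, and all 41 were listed for zygotes and late 2-cell embryos (of 49686 symbols each). The blastocyst table listed 40 of them (of 51734 symbols), and Kif28 was not analysed there. By known role, 10 were spindle and chromosome motors, 4 were cytokinesis and midzone motors, 17 were cargo transport motors, and the remaining 10 were grouped as cilium and other motors.

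Single mouse embryos were sequenced after mRNA for wild-type (WT) CHK1 or for the mutant form named R442Q had been injected at the zygote stage. CHK1, encoded by Chek1, is a checkpoint kinase that delays mitosis while DNA is damaged or unreplicated, and by its title the study concerns preimplantation embryos in which that control is disturbed. The embryos compared were 5 WT and 6 R442Q zygotes and 4 WT and 5 R442Q late 2-cell embryos, none of them given an inhibitor per the labels. The 7 WT and 7 R442Q blastocysts had all been cultured with a CHK1 inhibitor at 30 nM, so no blastocyst without it was analysed here. WT and R442Q, called genotypes below after the labels, thus name the injected mRNA; every embryo carried it on top of its own Chek1, and uninjected embryos were not analysed here. The strain, the age of the females and the injection day were not given in the sources used here, and p-values therefore measure the spread between these embryos.

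In dividing cells a small set of kinesins builds the spindle, moves chromosomes and places the cleavage furrow, and genes of that set are switched on together in the G2 and M phases. Other kinesins carry vesicles, mitochondria, mRNA or ciliary parts, many of them in neurons or ciliated cells. The mouse zygote starts with a store of maternal mRNA, much of which is lost by the late 2-cell stage as the embryo's own genome is transcribed, so a change over these stages combines the loss of old and the gain of new transcripts.

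Zygotes had 7183632 to 11296522 estimated counts in all, and late 2-cell embryos 5727956 to 8916343. The depth of the blastocysts is unknown, since only FPKM (fragments scaled to transcript length and library size) was used for them. Chek1 did not differ between genotypes beyond the spread between embryos, with log2 differences of 0.20 ± 0.15 (SE) in zygotes (edgeR adjusted p 0.416), 0.00 ± 0.33 at the late 2-cell stage (edgeR adjusted p 0.989) and -0.04 ± 0.33 in blastocysts (limma adjusted p 0.991). Oocyte and trophectoderm markers followed the labels: the summed FPKM of 6 oocyte-derived markers was 1701 to 3292 in zygotes and 17.7 to 70.5 in blastocysts, and that of 6 trophectoderm markers was 1186 to 24261 in blastocysts and at most 56.2 elsewhere. The sum of 6 late 2-cell markers was apart between zygotes and late 2-cell embryos within each genotype. Across genotypes it overlapped, reaching 136 FPKM in R442Q zygotes against a lowest value of 82.6 in WT late 2-cell embryos. A list of 10 cumulus and granulosa cell markers, the cells that surround the egg, summed to at most 23.5 FPKM in any embryo.

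A single kinesin transcript stood above the others in zygotes. Kif23, the motor subunit of the centralspindlin complex that bundles midzone microtubules for cytokinesis, stood at 440 ± 109 FPKM (SD, n = 11 zygotes) and made up 45.5% of the summed kinesin FPKM. It was followed by Kif17, a motor known from dendritic and ciliary transport, at 106 ± 11.7 FPKM. Kif20b and Kif20a, both midzone motors, stood at 69.5 ± 13.4 and 62.5 ± 8.97 FPKM. Kif22, a chromokinesin that binds chromosome arms and pushes them toward the spindle equator, stood at 58.8 ± 22.9 FPKM. Over all zygotes these 3 ranges overlapped, but Kif22 was above Kif20a in all 5 WT zygotes and below it in all 6 R442Q zygotes. In all, 22 of 41 kinesins reached 1 FPKM in every zygote and 12 stayed under 1 FPKM in every zygote.

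By the late 2-cell stage that single lead was gone. Kif22 at 106 ± 44.7 FPKM and Kif23 at 103 ± 32.7 FPKM (SD, n = 9) did not differ beyond their spread and held 15.9% and 15.5% of the kinesin FPKM. Next came Kif20b (68.2 ± 18.9), Kif2c (66.5 ± 27.4) and Kif20a (50.1 ± 18.5 FPKM), whose ranges also overlapped. Kif2c is a microtubule depolymerase that corrects faulty attachments of chromosomes. In blastocysts the leading levels were again Kif22 (68.2 ± 35.0 FPKM), Kif23 (62.8 ± 20.9) and Kif20a (51.8 ± 21.7; SD, n = 14 each), which overlapped one another. Kif17, the runner-up of the zygote, was listed at 0 in all 14 blastocysts, as were Kif1a, Kif2b, Kif12, Kif26a and Kif26b. The tables of the 3 stages were normalised separately, so levels are set side by side across them without a test.

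**Figure D1:**
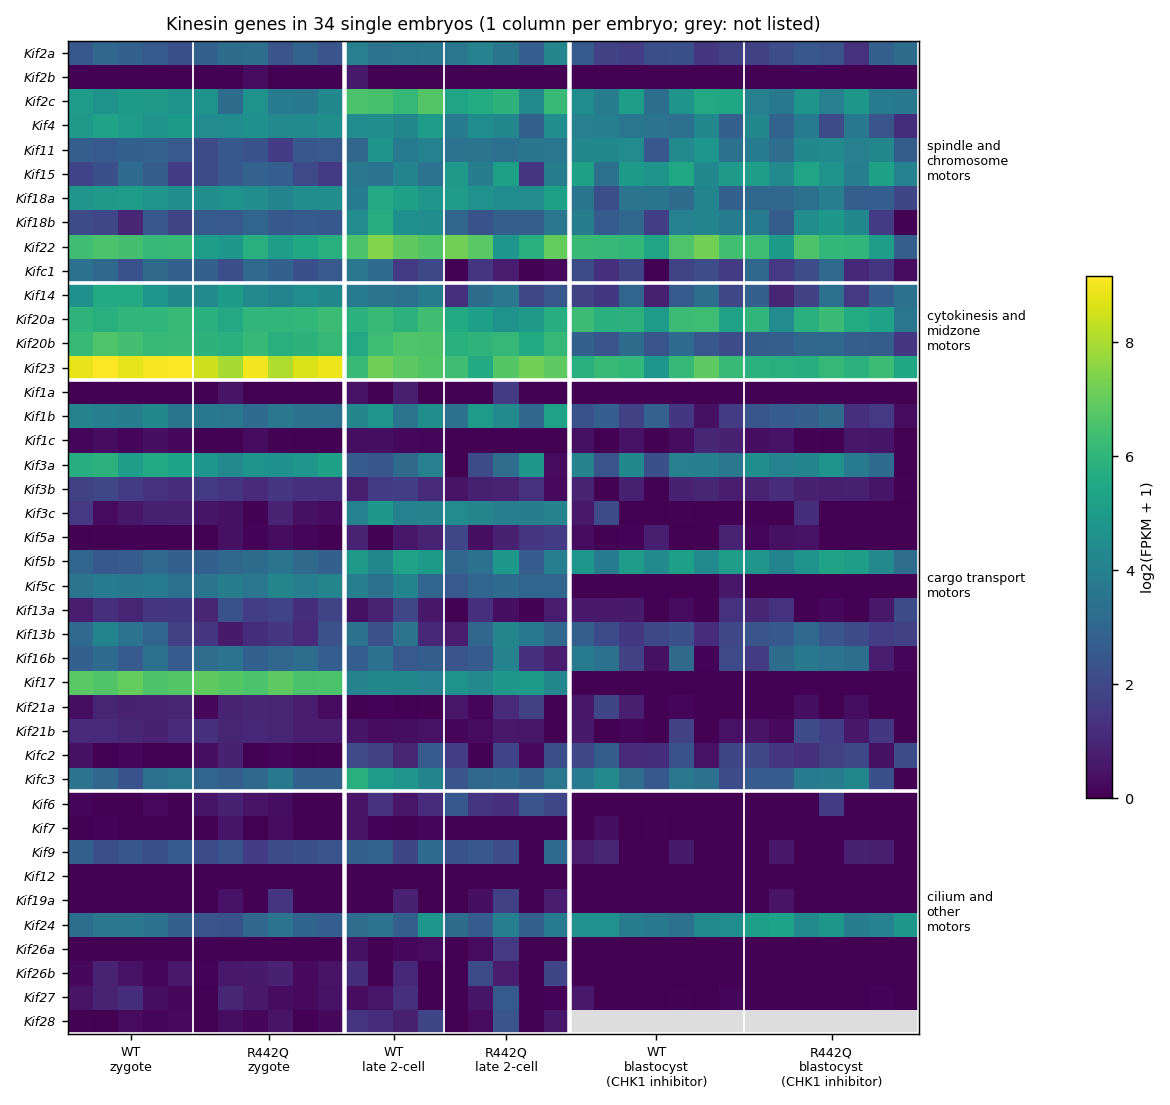
Expression of the 41 kinesin genes (vertical axis, grouped by role) in 34 single embryos (horizontal axis, 1 column per embryo, grouped by genotype and stage), as log2(FPKM + 1) on the colour scale; grey marks Kif28, which the blastocyst table did not list. Kif23 is the brightest gene in zygotes, Kif17 fades from bright in zygotes to 0 in blastocysts, and most cilium and other motors stay dark throughout.

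The promoters of the spindle and midzone motors were compared with those of the other kinesins, because genes switched on together in G2 and M often carry a CHR element (TTTGAA), bound by the MuvB complexes, beside CCAAT boxes, bound by NF-Y. RefSeq promoter windows (GRCm38.p6, 250 bases before to 50 after each start) were found for 32 of the 41 kinesins and were searched on both strands for TTTGAA and CCAAT, whose matches can overlap by at most 1 base. TTTGAA occurred in 10 of 13 spindle and midzone motors against 3 of 19 transport, cilium and other motors, and in 20.2% of all 27025 genes with a window. CCAAT occurred in 8 of 13 against 7 of 19, and in 41.1% of all genes. Both occurred in 7 of 13 against 2 of 19, and in 7.97% of all genes. A match describes the letters in this window only. The windows below belong to the spindle and midzone motors on which the results turn: Kifc1 (chr17:33890584-33890883, minus strand) and its near copy Kifc5b (chr17:26916841-26917140, plus strand), Kif18b (chr11:102925075-102925374, minus strand), Kif22 (chr7:127042371-127042670, minus strand), Kif4 (chrX:100625815-100626114, plus strand) and Kif23 (chr9:61946750-61947049, minus strand). Each is written 5′ to 3′ along the gene's strand, and capitals mark TTTGAA or CCAAT, or their reverse complements TTCAAA and ATTGG.
Kifc1: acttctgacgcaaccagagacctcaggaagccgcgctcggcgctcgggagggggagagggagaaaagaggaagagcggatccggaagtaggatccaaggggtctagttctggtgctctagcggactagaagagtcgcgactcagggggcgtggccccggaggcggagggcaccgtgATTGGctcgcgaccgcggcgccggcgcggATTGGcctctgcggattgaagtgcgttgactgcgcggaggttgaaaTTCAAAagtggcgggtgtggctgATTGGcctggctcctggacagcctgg
Kifc5b: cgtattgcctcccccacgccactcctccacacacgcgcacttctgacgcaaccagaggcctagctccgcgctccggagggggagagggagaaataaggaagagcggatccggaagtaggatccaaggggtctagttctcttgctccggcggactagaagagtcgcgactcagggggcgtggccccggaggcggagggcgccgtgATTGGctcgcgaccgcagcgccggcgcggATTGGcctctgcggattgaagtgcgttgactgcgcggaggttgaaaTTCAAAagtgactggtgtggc
Kif18b: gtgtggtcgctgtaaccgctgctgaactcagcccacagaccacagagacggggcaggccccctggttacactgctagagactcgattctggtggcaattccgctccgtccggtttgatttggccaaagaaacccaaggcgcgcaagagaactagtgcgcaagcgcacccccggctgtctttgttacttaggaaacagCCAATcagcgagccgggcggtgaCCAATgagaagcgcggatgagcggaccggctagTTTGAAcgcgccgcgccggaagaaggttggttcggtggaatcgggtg
Kif22: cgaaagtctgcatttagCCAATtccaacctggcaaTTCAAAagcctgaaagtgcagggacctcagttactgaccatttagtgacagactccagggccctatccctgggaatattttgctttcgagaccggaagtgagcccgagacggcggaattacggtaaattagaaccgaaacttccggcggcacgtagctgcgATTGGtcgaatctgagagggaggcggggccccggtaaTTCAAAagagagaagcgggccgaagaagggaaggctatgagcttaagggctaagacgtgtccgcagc
Kif4: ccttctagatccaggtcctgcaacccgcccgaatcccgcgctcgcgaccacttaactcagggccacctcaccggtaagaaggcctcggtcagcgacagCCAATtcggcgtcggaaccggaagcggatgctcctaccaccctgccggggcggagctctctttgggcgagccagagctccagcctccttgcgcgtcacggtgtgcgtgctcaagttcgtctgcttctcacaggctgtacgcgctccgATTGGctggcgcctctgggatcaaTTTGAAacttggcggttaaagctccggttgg
Kif23: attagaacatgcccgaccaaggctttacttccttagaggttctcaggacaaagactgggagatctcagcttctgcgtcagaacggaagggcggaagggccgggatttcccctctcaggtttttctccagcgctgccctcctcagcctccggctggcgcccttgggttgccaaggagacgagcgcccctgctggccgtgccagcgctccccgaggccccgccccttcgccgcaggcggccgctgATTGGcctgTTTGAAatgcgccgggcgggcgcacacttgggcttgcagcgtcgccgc
The Kifc1 and Kifc5b windows were 91.2% identical over 272 aligned columns.

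From zygote to late 2-cell embryo, 5 of 9 tested spindle motors rose in WT embryos and 0 fell, 2 of 4 midzone motors fell and 0 rose, and cargo motors changed in both directions. An edgeR model over zygotes and late 2-cell embryos tested 35 of the 41 kinesins, and in WT embryos 17 changed (12 higher and 5 lower, at a Benjamini-Hochberg adjusted p under 0.05). Over all 16199 genes tested, 61.2% changed, 36.2% higher and 25.0% lower, so the 48.6% of kinesins called was below the share of all genes. The stages came in separate tables, and stage and table cannot be told apart. The median log2 change of the 9 tested spindle and chromosome motors was 0.76, that of the 4 cytokinesis and midzone motors was -0.90, and that of all genes was 0.34.

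Among the spindle motors, Kif18b, which trims astral microtubules, rose most. Its level in WT zygotes was 10.5, 5.52, 3.15, 12.4 and 8.59 CPM (counts scaled to 1000000 per embryo) in replicates 1 to 5, and in WT late 2-cell embryos 57.9, 155, 64.4 and 67.4 CPM in replicates 1 to 4. The stages did not overlap, and the log2 change was 3.36 ± 0.41 (SE; edgeR adjusted p 2.7e-07). Kif11, which pushes the spindle poles apart, stood at 27.3, 23.7, 29.1, 30.2 and 23.3 CPM in WT zygotes and at 34.7, 123, 61.7 and 73.7 CPM at the late 2-cell stage. Every late 2-cell embryo was above every zygote (log2 change 1.41 ± 0.31, edgeR adjusted p 0.000499). Kif2c changed by 1.52 ± 0.31 (edgeR adjusted p 0.000182), and Kif15 and Kif2a also rose. The call of Kif15 did not hold without WT zygote replicate 2 (adjusted p 0.0594) or WT late 2-cell replicate 2 (0.0678), and that of Kif2a did not hold in 11 of 24 alternative settings, most of them leaving out 1 embryo. Kif2a also shares 19.7% of its 50-base stretches with other genes, most often Dimt1 on the opposite strand, which rose by 2.02 ± 0.30 (edgeR adjusted p 4.79e-06). The use of strand in counting is not given in the sources used here.

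Of the 4 midzone motors, 2 fell. Kif23 (GRCm38 chromosome 9, 61915905 to 61946774) stood at 671, 846, 689, 713 and 752 CPM in WT zygotes and at 143, 252, 201 and 201 CPM in WT late 2-cell embryos. The groups were far apart, and the log2 change was -1.95 ± 0.23 (SE; edgeR adjusted p 1.95e-07). Kif14, a midzone motor that binds Prc1 and citron kinase, stood at 131, 255, 248, 152 and 108 CPM in WT zygotes and at 53.4, 53.0, 47.4 and 55.3 CPM at the late 2-cell stage, again without overlap (log2 change -1.85 ± 0.35, edgeR adjusted p 0.000106). Kif20a, which brings the chromosomal passenger complex to the midzone, and Kif20b did not pass, with log2 changes of 0.05 ± 0.23 (edgeR adjusted p 0.874) and 0.05 ± 0.22 (edgeR adjusted p 0.866). Kif20a shares 25.2% of its stretches with other genes, most often Cdc23 on the opposite strand, which rose by 2.11 ± 0.48 (edgeR adjusted p 0.000631).

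Of 15 tested cargo motors, 5 rose, 3 fell and 7 did not pass the test. Kif17 stood at 343, 305, 382, 293 and 319 CPM in WT zygotes and at 49.2, 57.5, 55.4 and 49.7 CPM at the late 2-cell stage, a narrow range in each (log2 change -2.71 ± 0.21, edgeR adjusted p 1.91e-10). Kif3a, a subunit of the motor of intraflagellar transport, stood at 72.3, 81.4, 48.4, 71.9 and 59.6 CPM and then at 7.12, 10.02, 14.8 and 18.0 CPM (log2 change -2.48 ± 0.76, edgeR adjusted p 0.00716). Kif3c, which can pair with Kif3a in place of Kif3b, moved in the opposite direction. It stood at 2.58, 1.44, 1.39, 1.22 and 0.736 CPM in WT zygotes and at 47.3, 86.5, 47.0 and 47.1 CPM at the late 2-cell stage (log2 change 5.20 ± 0.58, edgeR adjusted p 6.95e-08). Kif3c shares 39.6% of its stretches with other genes, most often 1110002L01Rik on the opposite strand, whose share of these counts was not tested.

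Kif5b, the most widely expressed heavy chain of conventional kinesin, stood at 35.0, 28.2, 31.1, 32.0 and 27.6 CPM in WT zygotes and at 137, 94.1, 160 and 144 CPM in WT late 2-cell embryos (log2 change 2.04 ± 0.26, edgeR adjusted p 5.4e-07). Kifc3, a motor that walks toward the minus end and is known at cell junctions, stood at 17.1, 12.3, 7.27, 11.3 and 16.99 CPM and then at 125, 68.6, 73.0 and 35.5 CPM (log2 change 2.43 ± 0.35, edgeR adjusted p 2.54e-06). Neither gene overlapped between the stages in WT embryos. The neuronal heavy chain Kif5a, the neuronal motor Kifc2 and the ciliary motor Kif6 rose from at most 0.989 CPM in any WT zygote, and Kif28 rose from at most 0.630 CPM. At the late 2-cell stage Kif5a stood at 3.56, 0.290, 2.78 and 3.57 CPM, Kifc2 at 9.38, 6.24, 2.93 and 11.2 CPM, Kif6 at 1.29, 1.89, 1.54 and 4.08 CPM and Kif28 at 3.40, 4.21, 2.47 and 9.52 CPM. These 4 stayed scarce, and with 0 to 8 counts per zygote their fitted fold changes depend on the prior count and are not given. Their edgeR adjusted p values were 0.000625, 0.00306, 0.00122 and 0.0202. Without WT late 2-cell replicate 4 the p of Kif28 was 0.0629. Of the stretches of Kif28, 2.87% lie in other genes, most often Ahctf1, which overlaps it on the same strand and rose by 1.19 ± 0.25 (edgeR adjusted p 0.00027). Kif21a fell from 1.61, 5.52, 2.52, 2.97 and 2.03 CPM to 0, 0.436, 0 and 0.170 CPM (edgeR adjusted p 0.00481).

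In R442Q embryos 19 of 35 kinesins changed over the same stages (10 higher and 9 lower), against 65.1% of all genes (35.3% higher and 29.8% lower). Of these, 12 were also called in WT embryos, and all 12 moved in the same direction, 8 higher and 4 lower. The share of all genes called in both genotypes was not computed. Among the 8, the R442Q calls of Kif2a and Kif5a were lost in 13 and 6 of 24 alternative settings. The 4 lower in both genotypes were Kif3a, Kif14, Kif17 and Kif23. Kif5b, Kif18b, Kif21a, Kif28 and Kifc3 were called in WT embryos alone, and Kif3b, Kif5c, Kif20a, Kif21b, Kif22, Kif26a and Kifc1 in R442Q embryos alone, which by itself does not show that the genotypes differ. Kif26a was at 0 counts in all 6 R442Q zygotes and at 0, 1.40, 13.0, 0 and 0 CPM in the 5 R442Q late 2-cell embryos, so its call rests on 2 embryos. In an alternative added after the data were seen, the trend of each library with gene length and GC content was removed. It called 14 kinesins higher and 5 lower in R442Q embryos, against 5856 higher and 4570 lower of all 16199 genes. Kif3b, Kif5c, Kif20a and Kif21b were then no longer called.

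**Figure D2:**
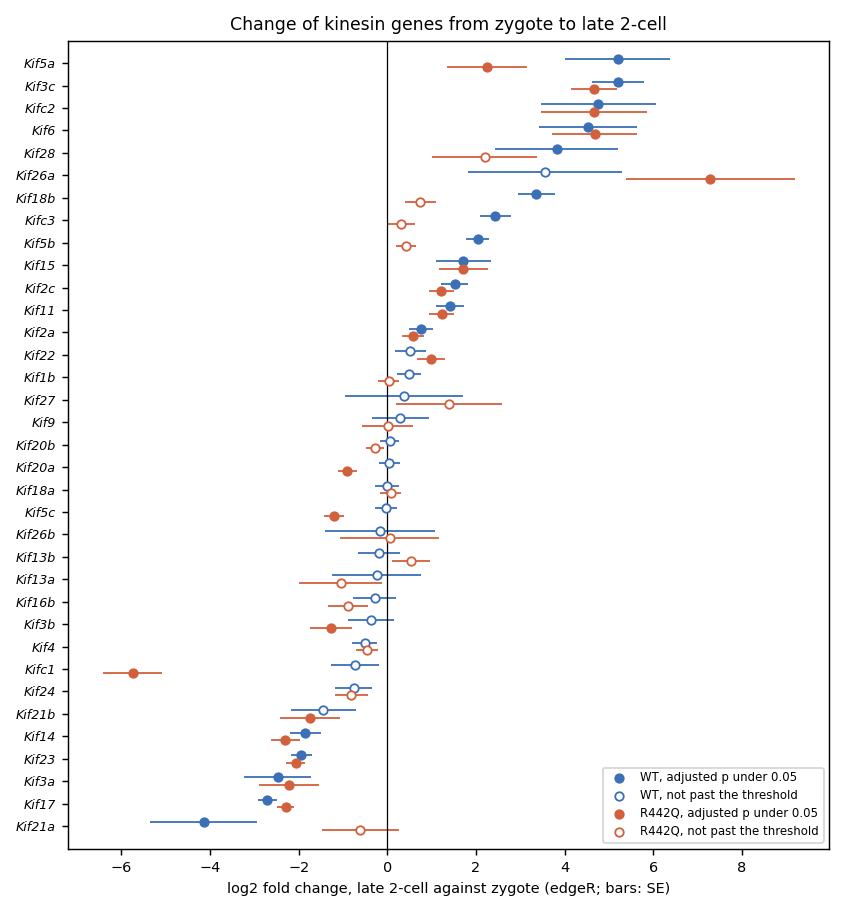
Log2 fold change from zygote to late 2-cell embryo (horizontal axis; bars, SE) of the 35 tested kinesins (vertical axis, ordered by the WT value), in WT (blue) and R442Q embryos (orange); filled points passed an adjusted p of 0.05 in edgeR. Kif3c lies far to the right and Kif17 and Kif23 to the left in both genotypes, while Kifc1, Kif18b, Kifc3 and Kif5b lie further left in R442Q than in WT embryos.

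Summed over all kinesins, R442Q zygotes held less kinesin FPKM than WT zygotes. The sum was 1112 ± 61.5 FPKM in WT (SD, n = 5; 1060 to 1216) and 845 ± 128 in R442Q zygotes (SD, n = 6; 681 to 992), and the groups did not overlap. Spindle and chromosome motors summed to 193 ± 17.7 against 125 ± 19.7 FPKM, and midzone motors to 688 ± 58.7 against 523 ± 120 FPKM. At the late 2-cell stage the sums were 781 ± 103 (SD, n = 4; 664 to 912) and 573 ± 82.0 FPKM (SD, n = 5; 478 to 698), with a small overlap. In inhibitor-treated blastocysts they were 411 ± 108 and 352 ± 112 FPKM (SD, n = 7 each) and overlapped widely. All genes together summed to 712234 to 742246 FPKM in WT and 814376 to 976830 FPKM in R442Q late 2-cell embryos, and once each embryo was rescaled to a common total the kinesin difference was larger (log2 -0.72 against -0.45).

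**Figure D3:**
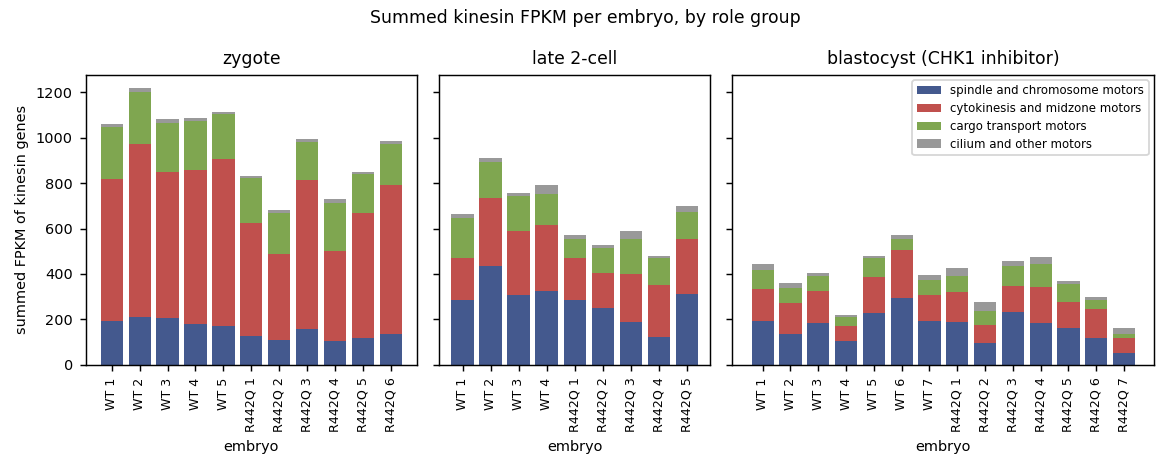
Summed FPKM of the kinesin genes (vertical axis, from 0) in each of 34 embryos (horizontal axis), stacked by role group, for zygotes, late 2-cell embryos and inhibitor-treated blastocysts. All 5 WT zygotes exceed 1060 FPKM and all 6 R442Q zygotes stay below 993, and the midzone motors are the largest block in every zygote.

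In zygotes, edgeR tested 30 of the 41 kinesins between the genotypes and called 6, 2 higher and 4 lower in R442Q. These 6 of 30 stand against a background of 13.2% of all 12420 genes (6.30% higher and 6.92% lower). The median log2 difference of the 30 was -0.16, against 0.01 over all genes, and 19 of the 30 were below 0. In CPM the genotypes did not overlap for 7 kinesins, all lower in R442Q, against 9.39% of all genes (6.84% lower). In FPKM they were apart for 5, with Kif4, Kif11, Kif20b and Kif22 lower and Kif18b higher in R442Q, while Kif2c, Kif13b and Kif23 overlapped. The oocyte-derived markers moved with these results: they summed to 2552 to 3292 FPKM in WT and 1701 to 2469 FPKM in R442Q zygotes, without overlap and with none of 6 at 0. The 10 cumulus and granulosa markers summed to 18.1 to 20.9 FPKM in WT and 12.7 to 17.1 FPKM in R442Q zygotes, also without overlap, with Ptx3, Amh and Inha at 0 in every WT zygote and Amh in every R442Q zygote. Most of each sum was Cyp19a1 alone, at 16.7 to 19.3 FPKM in WT and 9.35 to 15.3 FPKM in R442Q zygotes. Tnfaip6 went the other way, with a median of 0 in WT and 0.65 FPKM in R442Q zygotes. The 6 late 2-cell markers summed to 6.38 to 10.6 and 17.2 to 136 FPKM, with Tdpoz4 at 0 in some zygotes of both genotypes and Zscan4f in some WT zygotes. Their part in the kinesin differences was not tested.

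Both chromokinesins, motors that bind chromosome arms, were lower. Kif22 (GRCm38 chromosome 7, 127027729 to 127042471) stood at 156, 182, 170, 134 and 144 CPM in WT zygotes and at 55.2 to 107 CPM in the 6 R442Q zygotes (median 74.5). The genotypes did not overlap, and the log2 difference was -0.85 ± 0.15 (SE; edgeR adjusted p 0.0019). Kif4 (chromosome X, 100625737 to 100727214) stood at 142, 178, 147, 125 and 150 CPM in WT and at 69.8 to 107 CPM in R442Q zygotes (median 96.5), also without overlap (log2 difference -0.54 ± 0.12, edgeR adjusted p 0.00726). Kif4 shares 14.5% of its stretches with other genes, most often Pdzd11 on the opposite strand, which differed by -0.21 ± 0.14 (edgeR adjusted p 0.357).

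Kif13b, a cargo motor, differed most. It stood at 21.4, 28.3, 21.9, 21.5 and 13.8 CPM in WT and at 4.22 to 11.2 CPM in R442Q zygotes (median 7.46), without overlap (log2 difference -1.36 ± 0.25, edgeR adjusted p 0.00248). Kif3a stood at 72.3, 81.4, 48.4, 71.9 and 59.6 CPM in WT and at 24.5 to 54.1 CPM in R442Q zygotes (median 38.0), and here 1 R442Q embryo lay above the lowest WT embryo (log2 difference -0.64 ± 0.18, edgeR adjusted p 0.0238). The Kif3a call was lost without WT replicate 1, 2 or 4 (adjusted p 0.0585, 0.0641 and 0.0534). Kif5c and Kif5b, heavy chains of conventional kinesin, were higher, Kif5c by 0.44 ± 0.14 (edgeR adjusted p 0.0442) and Kif5b by 0.44 ± 0.14 (edgeR adjusted p 0.0456), with overlapping genotypes. Kif5c stood at 71.2, 70.9, 81.6, 73.2 and 56.2 CPM in WT and at 71.1 to 111 CPM in R442Q zygotes (median 82.1), and Kif5b at 35.0, 28.2, 31.1, 32.0 and 27.6 CPM in WT and at 30.6 to 43.2 CPM in R442Q zygotes (median 39.5). Those 2 calls were lost in 10 and 12 of 17 alternative settings.

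No midzone motor passed the test between the genotypes in zygotes, nor did a spindle motor besides Kif22 and Kif4. With all embryos kept, alternatives that called others lower included DESeq2 (Kif2c), no filter on low counts (Kif2c, Kif14 and Kif23), limma on FPKM (Kif2c and Kif20b) and removal of the length and GC trend (Kif2c and Kif23), and limma on FPKM called Kif18b higher. The replicate block is given with the other alternatives. Without R442Q replicate 1, 3 or 6, the lower calls were 5, 6 and 5, against 4 with all embryos. Kif23 stood at 671, 846, 689, 713 and 752 CPM in WT and at 317 to 648 CPM in R442Q zygotes (median 492), not overlapping (log2 difference -0.45 ± 0.15, edgeR adjusted p 0.0554). Kif2c (-0.67 ± 0.22, edgeR adjusted p 0.056), Kif20b (-0.29 ± 0.11, 0.0759) and Kif11 (-0.40 ± 0.20, 0.216) did not overlap between the genotypes either. For Kif20b the levels were 103, 134, 113, 105 and 98.4 CPM in WT and 76.2 to 95.1 CPM in R442Q zygotes (median 80.7). The spindle motors Kif18b, Kif15 and Kif2a had positive log2 differences, 0.65, 0.30 and 0.10. Kif20a, at 212, 179, 218, 222 and 253 CPM in WT and 156 to 266 CPM in R442Q zygotes (median 221), overlapped fully, with a log2 difference of 0.10 ± 0.13 (edgeR adjusted p 0.672). In the model that joined both stages, in which 4 groups share an estimate of the spread, none of the 6 calls was made (edgeR adjusted p 0.125 to 0.842). That model called 0 of 35 kinesins and 270 of all 16199 genes between the zygote genotypes.

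**Figure D4:**
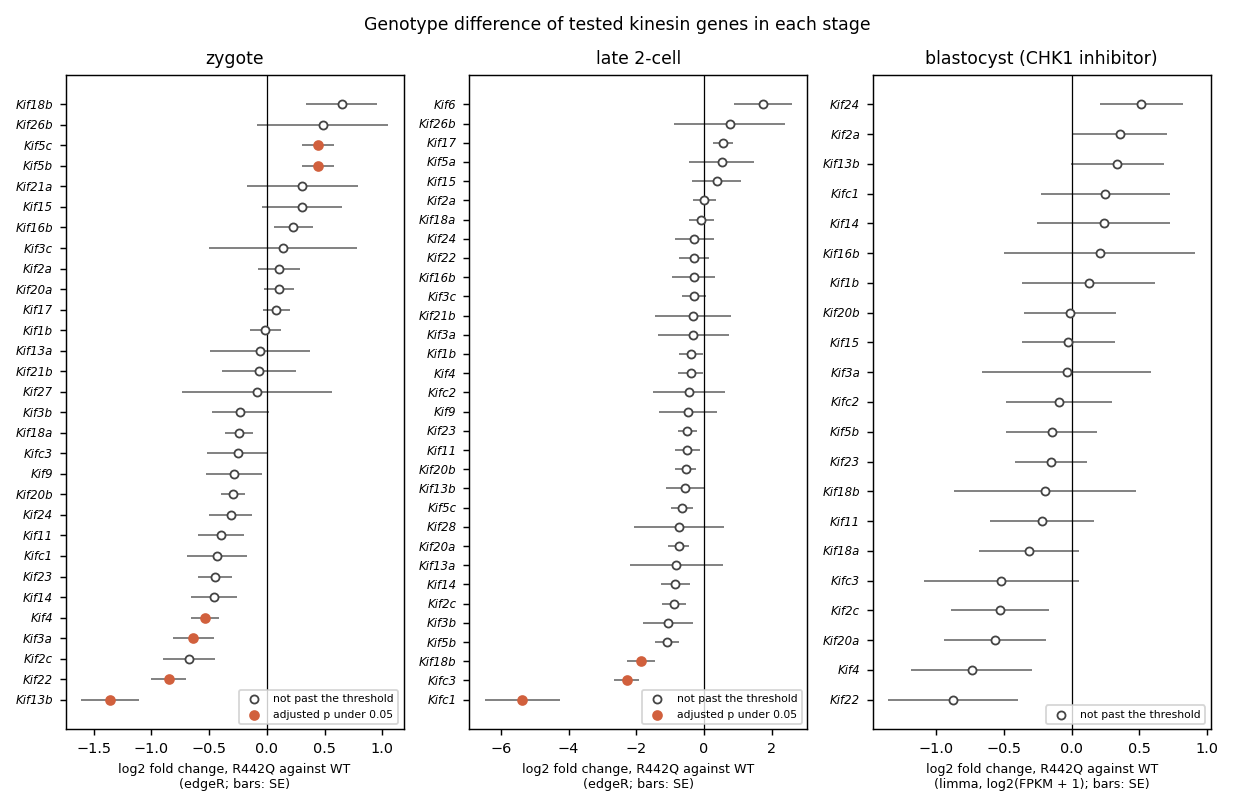
Log2 fold change of R442Q against WT (horizontal axes, of unlike range; bars, SE) for each tested kinesin (vertical axes, ordered within a panel) in zygotes, late 2-cell embryos and inhibitor-treated blastocysts; filled points passed an adjusted p of 0.05. Of the called genes, 4 of 6 lie below 0 in zygotes and 3 of 3 at the late 2-cell stage, and no blastocyst point is filled.

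At the late 2-cell stage 3 of 32 tested kinesins were called between the genotypes, all lower in R442Q. These were 9.38% of those tested, against a background of 4.18% of all 13883 genes (2.95% lower). The median log2 difference of the 32 was -0.45, against 0.07 over all genes, and 26 of 32 were below 0, against 47.3% of all genes. The genotypes did not overlap for 5 kinesins, Kifc1, Kifc3, Kif5b, Kif18b and Kif20a, all lower in R442Q, against 12.4% of all genes (8.77% lower). Kinesin genes are long, with a median longest transcript of 5140 bases among those tested against 3100 bases over all genes, and across genes, which are not independent replicates, the genotype difference was correlated with log2 length (r = -0.31) and with GC content (r = -0.27). With the length and GC trend of each library removed, the median of the 32 was -0.22 and 2 were called, Kif17 higher and Kifc1 lower. That fit called 64 of all 13883 genes higher and 104 lower. The 6 late 2-cell markers summed to 82.6 to 797 FPKM in WT and to 424 to 1964 FPKM in R442Q embryos, with none at 0. The 6 oocyte-derived markers summed to 187 to 579 FPKM in WT and 298 to 496 FPKM in R442Q embryos, with none at 0 in all embryos of a genotype. Among them Ooep (14.9 to 25.7 against 49.7 to 135 FPKM) and Nlrp5 (22.2 to 44.5 against 44.7 to 50.5 FPKM) did not overlap and were higher in R442Q embryos. Zp3, Gdf9, Bmp15 and Mos overlapped. In R442Q embryos the median was lower for Zp3 (72.7 in WT against 57.85 FPKM), Gdf9 (86.5 against 53.8) and Mos (1.08 against 0.4). For Bmp15 it was higher (71.2 against 106.8 FPKM). The part of these markers in the kinesin differences was not tested.

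Kifc1, a motor that walks toward the minus end and focuses spindle poles, was nearly undetected in R442Q late 2-cell embryos. Its level in WT embryos was 16.7, 15.2, 3.03 and 5.17 CPM in replicates 1 to 4, and in R442Q embryos 0, 0.349, 0.330, 0 and 0.336 CPM in replicates 1 to 5. Every R442Q embryo was below every WT embryo, with 0 to 3 counts each against 19.6 to 104 counts. Pooled, 258 counts in WT stood against 7 in R442Q embryos, a CPM ratio of 47.1 (95% exact interval 22.5 to 118, counting error only), and the edgeR adjusted p was 0.0169. Kifc1 (GRCm38 chromosome 17, 33875659 to 33890661) shares 39.8% of its 50-base stretches with other genes, most often Kifc5b. Kifc5b is a near copy on the same chromosome that lies outside the naming rule, so reads of Kifc1 and Kifc5b may have been divided between them. Summed over both, the level was 21.4, 19.2, 6.95 and 7.14 CPM in WT and 0, 1.22, 0.825, 0 and 0.336 CPM in R442Q embryos, a pooled ratio of 29.9 (95% exact interval 17.9 to 54.0). Kifc5b alone differed by -3.62 ± 1.33 (SE; edgeR adjusted p 0.134). The Kifc1 call was lost without WT replicate 1 (adjusted p 0.0577) or WT replicate 2 (0.0823).

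In zygotes Kifc1 stood at 22.01, 15.6, 8.78, 17.5 and 13.8 CPM in WT and at 7.92 to 17.3 CPM in R442Q embryos (median 9.43), with a log2 difference of -0.43 ± 0.26 (edgeR adjusted p 0.317). The genotypes overlapped in zygotes, and the difference between the genotype effects of the stages was past the threshold (interaction log2 -5.03 ± 0.83, edgeR adjusted p 0.000545). In inhibitor-treated blastocysts Kifc1 was present in both genotypes, at 0 to 3.52 FPKM in WT (median 2.64) and 0.250 to 7.79 FPKM in R442Q (median 1.90).

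Kifc3 (GRCm38 chromosome 8, 95099828 to 95202812) stood at 125, 68.6, 73.0 and 35.5 CPM in WT late 2-cell embryos and at 9.27, 17.4, 15.8, 12.7 and 16.3 CPM in R442Q embryos. The lowest WT embryo was above the highest R442Q embryo (log2 difference -2.29 ± 0.38, edgeR adjusted p 0.00959). R442Q zygotes had held 7.36 to 14.5 CPM, and the change from zygote to late 2-cell in R442Q embryos was 0.31 ± 0.31 (edgeR adjusted p 0.385). With the length and GC trend removed, Kifc3 differed by -1.37 (adjusted p 0.0769).

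Kif18b (GRCm38 chromosome 11, 102905529 to 102925124) stood at 57.9, 155, 64.4 and 67.4 CPM in WT and at 23.1, 12.9, 18.8, 18.8 and 36.9 CPM in R442Q late 2-cell embryos. The genotypes did not overlap (log2 difference -1.87 ± 0.42, edgeR adjusted p 0.0248), and none of its 50-base stretches lay in another gene. Its call was lost without WT replicate 2 (-1.41, adjusted p 0.12), WT replicate 4 (0.0546) or R442Q replicate 2 (0.0536), and with the length and GC trend removed (-1.10, 0.199). In zygotes the sign was the other way, 0.65 ± 0.31 (edgeR adjusted p 0.182), with overlapping genotypes.

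Kif5b stood at 137, 94.1, 160 and 144 CPM in WT and at 39.5, 48.0, 92.5, 32.4 and 84.7 CPM in R442Q late 2-cell embryos. The genotypes were apart by a small margin in CPM and overlapped in FPKM, and the test was not passed (log2 difference -1.09 ± 0.35, edgeR adjusted p 0.0869). Kif20a stood at 201, 249, 206 and 283 CPM in WT and at 160, 122, 84.6, 102 and 180 CPM in R442Q embryos, again apart (log2 difference -0.75 ± 0.32, edgeR adjusted p 0.194). The 2 chromokinesins that differed in zygotes overlapped here, Kif22 at 188, 338, 216 and 198 CPM in WT and 268, 210, 50.8, 103 and 250 CPM in R442Q embryos (log2 difference -0.29 ± 0.45, edgeR adjusted p 0.773) and Kif4 with a log2 difference of -0.39 ± 0.37 (edgeR adjusted p 0.594). Kif23 stood at 143, 252, 201 and 201 CPM in WT and at 133, 108, 132, 169 and 127 CPM in R442Q embryos, overlapping (log2 difference -0.49 ± 0.28, edgeR adjusted p 0.35). Kif20b, at 64.7, 134, 140 and 138 CPM in WT and 79.4, 81.2, 76.5, 60.5 and 88.7 CPM in R442Q embryos, overlapped through WT replicate 1 alone (log2 difference -0.54 ± 0.32, edgeR adjusted p 0.35). Of 28 kinesins tested in both stages, 18 were lower in R442Q embryos in both, against 23.5% of all genes. In both stages 0 were called, and the share of all genes called in both was not computed. The stages have separate WT groups.

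**Figure D5:**
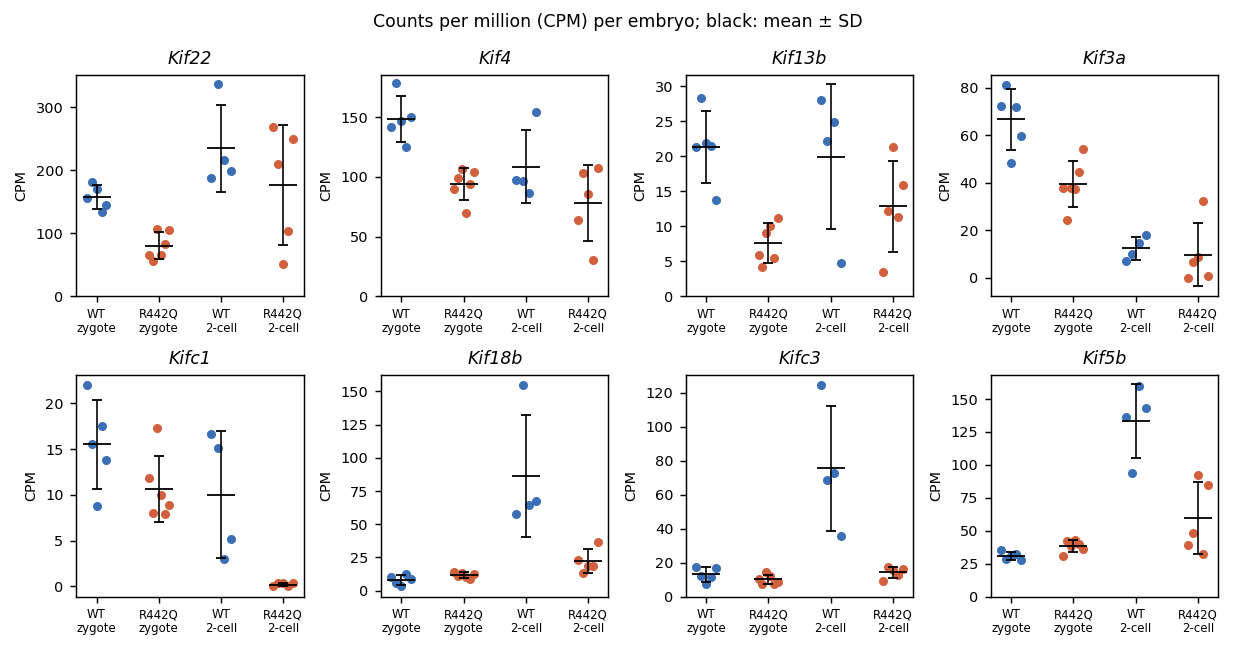
CPM (vertical axes, linear and of unlike range) of 8 kinesins in each zygote and late 2-cell embryo (points; WT blue, R442Q orange), with the mean and SD in black. Kif22, Kif4 and Kif13b separate the genotypes in zygotes, and Kifc1, Kif18b, Kifc3 and Kif5b separate them at the late 2-cell stage.

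The interaction of stage and genotype asked which kinesins differed in their genotype effect between the stages. It was past the threshold for 5 of 35 kinesins, all lower in R442Q at the late 2-cell stage relative to zygotes, against a background of 10.1% of all genes (7.05% lower). These were Kifc1 (given above), Kif18b (-2.62 ± 0.53, edgeR adjusted p 0.00321), Kif5b (-1.62 ± 0.35, 0.00477), Kifc3 (-2.12 ± 0.46, 0.00511) and Kif5c (-1.17 ± 0.33, 0.0264). For Kif5b and Kif5c the effect changed sign, from 0.44 in zygotes to -1.09 and -0.65 at the late 2-cell stage. Kif5c, which was called higher in R442Q zygotes, stood at 79.6, 67.7, 98.5 and 48.5 CPM in WT and 21.4, 48.7, 55.9, 48.1 and 47.6 CPM in R442Q late 2-cell embryos, overlapping. The median interaction over all genes was -0.16 with TMM scaling and -0.01 with the relative log expression scaling, and the same number of kinesins was called under both. The Kif5c call was lost in 12 of 24 alternative settings, and the Kifc3 call with the length and GC trend removed (adjusted p 0.062).

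In inhibitor-treated blastocysts limma on log2(FPKM + 1) tested 21 of 40 kinesins and called 0, with 0 at an unadjusted p under 0.05, against a background of 0.00885% called and 7.40% at that unadjusted p over all 11297 genes. The median log2 difference was -0.09 against -0.10 over all genes, and it was 0.06 without R442Q replicate 7 and 0.02 without WT replicate 5. With all embryos the genotypes were apart for 0 kinesins, against 0.416% of all genes. Kif22 stood at 40.0 to 149 FPKM in WT (median 71.7) and at 5.86 to 97.0 FPKM in R442Q blastocysts (median 64.8; n = 7 each). It had the largest difference of those tested, -0.87 ± 0.48 (limma adjusted p 0.741). Kif23 stood at 27.1 to 119 FPKM in WT (median 69.8) and at 41.8 to 76.6 FPKM in R442Q blastocysts (median 56.5). Kif20a stood at 32.3 to 78.8 FPKM in WT (median 58.0) and at 11.2 to 73.8 FPKM in R442Q blastocysts (median 48.4). Kif4 stood at 6.02 to 18.4 FPKM in WT (median 10.97) and at 1.32 to 18.0 FPKM in R442Q blastocysts (median 6.63), and Kif18b at 2.25 to 16.4 (median 13.0) and 0.05 to 28.4 FPKM (median 13.0). A blastocyst mixes cell types, and fewer cells of a type cannot be told apart from less RNA per cell. These ranges overlapped, and R442Q replicate 7 was the lowest blastocyst for Kif22, Kif4 and Kif18b.

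Partners of the kinesins gave the setting. Of 12 midzone and passenger proteins, all tested, 2 were lower in R442Q zygotes, where 13.2% of all genes were called and 6.92% were lower, Prc1, which cross-links midzone microtubules (-0.45 ± 0.11, edgeR adjusted p 0.0109), and Incenp, the scaffold of the passenger complex (-0.30 ± 0.10, 0.045). At the late 2-cell stage, with 4.18% of all genes called, 1 of 12 was lower, again Incenp (-1.90 ± 0.39, edgeR adjusted p 0.0169). Of 11 listed kinesin light chains, adaptors and the centromere motor Cenpe, 9 were tested and 0 were called by edgeR in zygotes (1 at an unadjusted p under 0.05 and 1 called by DESeq2) or in late 2-cell embryos (4 and 2), with median log2 differences of 0.04 and -0.81. Of all genes, 3366 of 12420 in zygotes and 2910 of 13883 at the late 2-cell stage had an unadjusted p under 0.05, and DESeq2 called 2207 of 16402 and 1780 of 16988. In the interaction, with 10.1% of all genes called, 3 of these 9 were lower, the light chain Klc1 (-2.90 ± 0.89, edgeR adjusted p 0.0386) and the adaptors Trak2 (-1.57 ± 0.42, 0.0183) and Mapk8ip3 (-1.68 ± 0.48, 0.0269), all of which work with the Kif5 heavy chains. Of 22 zygote-tested subunits and regulators of dynein, the main motor toward the minus end, 3 were higher and 5 lower in R442Q zygotes, against 6.30% and 6.92% of all genes. Of 21 tested at the late 2-cell stage, 0 were called by edgeR, with 6 at an unadjusted p under 0.05 and 4 called by DESeq2. In the interaction 6 of 22 were called, 3 lower (Actr1a, Dync1li1 and Actr1b) and 3 higher (Actr10, Dynlt1b and Dynlrb1).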

How the data were processed

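Each library was 1 embryo, read with SMART-seq2 cDNA, Tn5 fragmentation and Nextera libraries per the labels. The submitters' processing notes name RSEM and mm10, without version or role, and the annotation and the use of strand are not given in the sources used here. The deposited values were unnormalised estimated counts by symbol for the first 2 stages, and FPKM, in which the authors scaled fragments to length and depth, for all 3. The kinesins, roles and gene lists were chosen with earlier results of these data known.

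Counts were rounded and tested in R 4.3.3 with edgeR 4.0.16 (filterByExpr with a minimum count of 10, TMM scaling, quasi-likelihood test), each stage alone for R442Q against WT and in a model of 4 groups for the stage changes and the interaction. Blastocysts were tested with limma 3.58.1 on log2(FPKM + 1), a scale that understates changes of low genes, for genes with at least 1 FPKM in at least 7 of 14 embryos. P-values were adjusted by Benjamini-Hochberg over all genes tested, with a threshold of 0.05. A CPM is a count divided by the embryo's total and multiplied by 1000000. Alternatives were DESeq2 1.42.0, relative log expression scaling, no filter, limma on FPKM, a joint model, a replicate block and leaving out each embryo. Counts of settings that lost a call leave out the block, whose effect is given with the other alternatives. Added after the data were seen was a fit with each library's trend on length and GC content removed. The scripts were tested on simulated data with known 2-fold and 4-fold changes. In zygotes edgeR recovered 59% and 93.9% of them, at the late 2-cell stage 2% and 27.6%. For the stage change it recovered 3% and 55% in WT and 16% and 61% in R442Q embryos. In the interaction it recovered 3% and 28%, and 11.4% of calls were false. Limma recovered 38% and 79% in blastocysts. A gene not called at the late 2-cell stage may therefore still differ. No 2 libraries were identical.

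Values per embryo, or ranges in groups over 5, are given for members past the threshold between genotypes or in the interaction, the 3 highest in each stage, the 5 largest WT rises and falls over the stages, and Kif11, Kifc1, Kif20a, Kif23 and Kif4. Kif2a, Kif2c and Kif15 were described in addition, after their values were seen. Positions, lengths and shared 50-base stretches come from GENCODE M21 (GRCm38), which need not be the authors' annotation. Exact intervals of pooled count ratios (95%) cover counting error only, since amplified reads are not independent molecules.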

Additional observations from a re-analysis of the deposited data

Results flagged for a closer look

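An embryo lay far from the others of its group for 10 combinations of a kinesin and a group, out of 102 examined, and chance gives about 1 in 20. In zygotes, Kif14 reached 164 CPM in R442Q replicate 2, with the next at 119 CPM. Among WT late 2-cell embryos, replicate 2 was the highest for Kif18b (155 CPM, next 67.4) and for Kif3c (86.5 CPM, next 47.3). Replicate 4 was the highest for Kif4 (154 CPM, next 97.3), and replicate 1 the lowest for Kif20b (64.7 CPM, next 134). Among R442Q late 2-cell embryos, replicate 4 was the highest for the kinesins Kif3a (32.3 CPM, next 8.91) and Kif5a (6.87 CPM, next 3.11). Replicate 1 was the lowest for Kif5c (21.4 CPM, next 47.6), and replicate 3 the highest for Kif28 (13.0 CPM, next 1.68). In blastocysts, R442Q replicate 7 was the lowest for Kif20b (1.73 FPKM, next 5.46). The cause of these values was not tested.

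The genotype effect differed between zygotes and late 2-cell embryos for 5 kinesins in the edgeR interaction test. The log2 interaction was -5.03 for Kifc1, -2.62 for Kif18b, -1.62 for Kif5b, -2.12 for Kifc3 and -1.17 for Kif5c, each a lower R442Q level at the late 2-cell stage relative to zygotes.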

How the results depend on the processing

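In zygotes the 6 kinesin calls between genotypes became 0 in the model of 4 groups, and ranged from 3 (without WT replicate 1, 2 or 4) to 7 when an embryo was left out. Calls split into 0 higher and 7 lower without a filter on low counts, and into 1 higher and 6 lower with limma on FPKM. At the late 2-cell stage the 3 calls became 7 (1 higher and 6 lower) in the model of 4 groups, which called 2507 of all 16199 genes and added Kif5b, Kif20a and Kif2c (lower) and Kif21a (higher), and ranged from 1 (without WT replicate 2) to 4 when an embryo was left out. Blastocysts kept 0 calls when any embryo was left out. Leaving out an embryo gave 15 to 19 calls for the WT stage change, 16 to 19 for the R442Q stage change and 4 to 6 for the interaction. With the length and GC trend removed, the interaction gave 1 higher and 3 lower calls. The summed kinesin level differed by a log2 ratio of -0.45 to -0.34 in zygotes, -0.53 to -0.36 at the late 2-cell stage and -0.33 to -0.10 in blastocysts when an embryo was left out, and by -0.72 at the late 2-cell stage in summed TPM, the FPKM rescaled to a common total. No called kinesin changed sign in the alternatives run, but the median over blastocyst kinesins did when R442Q replicate 7 (0.06) or WT replicate 5 (0.02) was left out. R442Q stage calls were 10 higher and 9 lower, and 8 higher and 10 lower without a filter. Low counts limit Kifc1, Kif5a, Kif6, Kifc2 and Kif28. Embryos with the same replicate number shared only that number: their deviations correlated at -0.06 to 0.06 in zygotes, -0.14 to 0.21 at the late 2-cell stage and -0.17 to 0.20 in blastocysts, and with a replicate block the late 2-cell calls became 0 (adjusted p 0.0618 for Kifc3, 0.082 for Kif18b and 0.104 for Kifc1) and the zygote calls 0 higher and 6 lower (0.138 for Kif5c and 0.109 for Kif5b), with Kif2c and Kif23 added. The block fit called 17 kinesins in each stage change (7 higher and 10 lower in R442Q embryos) and 4 in the interaction, without Kif5c (0.0716). The cause of these changes was not tested.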

Other observations

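Of 12 midzone and passenger proteins tested from zygote to late 2-cell stage in WT embryos, 1 was higher and 5 were lower (Aurkc, Birc5, Ect2, Plk1 and Numa1) by edgeR, with a median log2 change of -0.35 against 0.34 over all genes. These 6 of 12 stand against 61.2% of all genes called. The 2 Aurora kinases of the passenger complex went in opposite directions. Aurkb, the form of dividing body cells, rose by 1.71 ± 0.34 on the log2 scale (SE; edgeR adjusted p 0.00016), and Aurkc, the form known from germ cells and early embryos, fell by 3.54 ± 0.29 (edgeR adjusted p 5.27e-10). In R442Q embryos 1 was higher and 8 were lower, against 65.1% of all genes called, with Aurkb at 1.60 ± 0.31 and Aurkc at -2.11 ± 0.24. The genotype effect on the stage change was past the threshold for 3 of the 12, against 10.1% of all genes: Aurkc (1.42 ± 0.34, edgeR adjusted p 0.0102), the passenger scaffold Incenp (-1.69 ± 0.37, 0.00497) and the spindle assembly factor Tpx2 (-1.26 ± 0.34, 0.0183).

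Dynein and dynactin, which move cargo toward the minus end, had calls in both directions. Of 22 tested genes, 6 were higher and 9 lower in WT embryos over the same stages, a share near the 61.2% of all genes called (36.2% higher and 25.0% lower). The heavy chain Dync1h1 rose by 3.08 ± 0.55 on the log2 scale (SE; edgeR adjusted p 5e-05), and the intermediate chain Dync1i2 fell by 2.27 ± 0.25 (edgeR adjusted p 5.94e-08).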
